A study of Mus musculus with 6 samples.

Results

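Regulators of G protein signalling (RGS) were examined in the prefrontal cortex of mice that had lived alone or in company. The 8 genes Rgs2, Rgs4, Rgs7, Rgs8, Rgs10, Rgs14, Rgs16 and Rgs20 were taken by symbol from a table of 23284 genes, and all 8 passed the filter on low counts that left 15258 genes for testing. Rgs2 and Rgs4, which neuronal activity is known to regulate, were set against the other 6. The samples were 3 libraries of single housing and 3 of group housing, all from wild type C57BL/6 animals (C57BL/6J in the growth protocol) aged 8 to 10 weeks and housed so for 6 days. Poly(A)-selected RNA was sequenced, and the deposited values were raw read counts per gene. Nothing in the labels ties each library to a separate mouse, so the p-values reflect the scatter among these libraries, part of which may be technical.

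RGS proteins shorten signalling by G protein-coupled receptors: they bind the active alpha subunit of a G protein and speed up its hydrolysis of GTP, which returns the subunit to its inactive state. The family falls into subfamilies by sequence. The R4 subfamily (Rgs2, Rgs4, Rgs8 and Rgs16 here) holds short proteins that are little more than the RGS domain, the R7 subfamily (Rgs7) works as a complex with the G protein subunit Gnb5, the R12 subfamily has Rgs10 and Rgs14, and Rgs20 belongs to the RZ subfamily that acts on the alpha subunit Gnaz. In the cortex they tune the responses of neurons to dopamine, serotonin, acetylcholine and glutamate acting through metabotropic receptors.

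Total counts were between 32902303 and 33428512 in the single-housed libraries and between 25858355 and 32088512 in the group-housed libraries. Cortical markers were present in every library: the 9 markers of cortical excitatory neurons summed to 6012 to 6580 CPM (reads per gene after scaling for sequencing depth with TMM factors) in single-housed and 5796 to 6828 CPM in group-housed libraries. The libraries also differed in markers of the striatum, which lies beneath the frontal cortex. The 19 striatal markers summed to 652 to 3112 CPM with single housing and to 682 to 1504 CPM with group housing, and their mean level was highest in single-housed replicates 1 and 2 and group-housed replicate 1. All 19 were higher with single housing (median log2 difference 0.95, single-housed minus group-housed). None was called for housing, and the groups did not overlap for 1 of them. The 6 myelin markers summed to 1909.7 to 4042 CPM with single housing and to 1882 to 5148 CPM with group housing. Six3, a striatal transcription factor gene, ranged from 0 to 308 counts per library, though the striatal list as a whole summed to at least 652 CPM in every library. Over all genes tested, edgeR's quasi-likelihood test called 0 genes for housing after Benjamini-Hochberg adjustment (0% of 15258), and 238 genes (1.56%) had an unadjusted p under 0.05. DESeq2 called 8 genes and limma-voom called 0.

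The promoters of Rgs2 and Rgs4 are shown because these are the genes known to respond to activity, and the motifs searched are those of factors that act in such responses, with the TATA box. The sequences are RefSeq's for build GRCm38.p6, from 250 bases before to 50 bases after the annotated start and read along each gene's own strand, the minus strand for both. Capitals mark a match to any of the motifs searched on both strands: the core of the cyclic AMP response element (TGACGT), its full form (TGACGTCA, which contains the core), the AP-1 site (TGANTCA), the EGR site (GCGTGGGCG) and the TATA box (TATAAA).
Rgs2, chr1:144004100-144004399: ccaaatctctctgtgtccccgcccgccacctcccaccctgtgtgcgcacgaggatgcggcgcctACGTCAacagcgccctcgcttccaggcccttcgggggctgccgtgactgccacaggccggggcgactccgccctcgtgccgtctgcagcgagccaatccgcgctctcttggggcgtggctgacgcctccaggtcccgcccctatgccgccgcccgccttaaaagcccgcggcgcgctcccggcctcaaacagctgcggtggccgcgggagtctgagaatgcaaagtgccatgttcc
Rgs4, chr1:169747593-169747892: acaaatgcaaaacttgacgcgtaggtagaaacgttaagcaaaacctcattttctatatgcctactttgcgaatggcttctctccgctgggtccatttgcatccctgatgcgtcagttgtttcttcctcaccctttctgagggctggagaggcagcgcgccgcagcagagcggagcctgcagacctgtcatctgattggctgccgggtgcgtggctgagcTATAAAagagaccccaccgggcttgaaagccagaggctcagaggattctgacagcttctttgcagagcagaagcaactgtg

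The Rgs2 window held 1 match, the response element core read on the opposite strand, 186 bases before the start, and 70.0% of its bases were G or C. The Rgs4 window held 1 match, a TATA box 31 bases before the start, and 53.0% of its bases were G or C, close to the median of 52.7% over all promoters in the table. Of 32851 promoters of the same length, 7.51% held the core, 1.79% the full element, 7.81% the AP-1 site, 0.612% the EGR site and 13.6% the TATA box. Promoters were found for 6 of the 8 genes (8 promoters, 3 of them of Rgs8), and the windows of Rgs7, Rgs8, Rgs10 and Rgs16 held none of these letters. A match describes letters in the window and is not evidence of a bound site.

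Rgs4 was by far the most abundant of the 8 transcripts per unit of length. Its level was 267 ± 41.1 RPKM (reads scaled to exon length, as deposited, and to a common library total; SD over all 6 libraries), which placed it above 99.1% of the genes tested. Rgs4 made up 60.3% to 64.9% of the summed RPKM of the 8 genes in single-housed and 57.5% to 66.2% in group-housed libraries. Next came Rgs7 at 43.6 ± 4.198 RPKM, a 6.11-fold lower level than that of Rgs4. Then followed Rgs14 at 26.01 ± 2.53 RPKM, Rgs10 at 24.99 ± 2.68 RPKM, Rgs8 at 22.3 ± 3.08 RPKM, Rgs2 at 18.3 ± 1.26 RPKM and Rgs20 at 16.0 ± 1.85 RPKM. Rgs16 was the lowest at 3.78 ± 0.362 RPKM, a level above that of 35.9% of the genes tested. The gaps between Rgs4 and Rgs7, between Rgs7 and Rgs14 and between Rgs20 and Rgs16 exceeded the spread in 6 of 6 libraries. Between Rgs14 and Rgs20 the ranges of neighbours overlapped, and each neighbouring pair kept its order in 4 or 5 of the 6 libraries. In reads, Rgs16 had 252 to 308 counts and Rgs4 had 15813 to 28315 counts per library, so the relative counting error was larger for Rgs16.

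**Figure D1:**
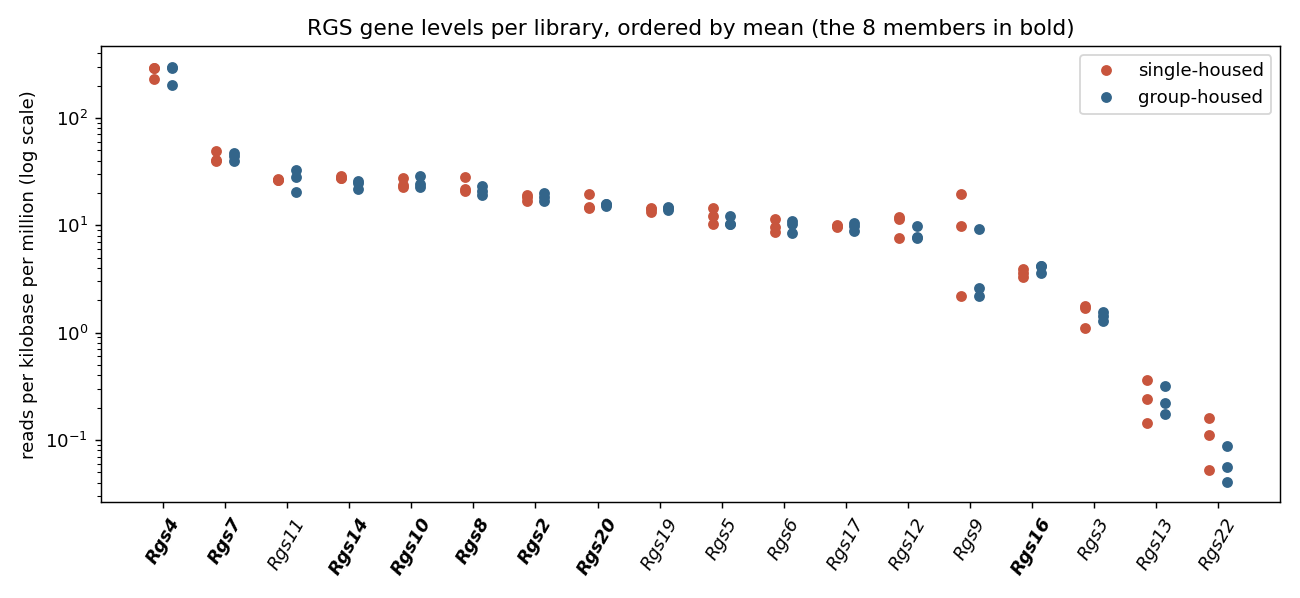
RPKM (log axis) of 18 RGS genes in each library, single-housed to the left and group-housed to the right of each gene, ordered by the mean over libraries, with the 8 genes described here in bold. Rgs4 stands alone at the top, 7 of the 8 genes are among the 8 most abundant, and Rgs9 spans the widest range among genes above 1 RPKM.

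Among the other RGS genes, Rgs11, a partner of Gnb5 like Rgs7, was as abundant as Rgs14 (26.7 ± 3.90 RPKM, SD over 6 libraries). Rgs16 ranked below most of them and above Rgs3, Rgs13 and Rgs22. Of the 8 genes, 6 lie on chromosome 1. Rgs8 (155500167 to 155544795 in mm9) and Rgs16 (155587483 to 155592598) are neighbours 42.7 kb apart on the same strand, yet the RPKM of Rgs8 was 5.31 to 8.52 times that of Rgs16 in single-housed and 4.58 to 6.49 times in group-housed libraries. Rgs4 (171671608 to 171677773) lies 48.0 kb from Rgs5, a pericyte gene, and Rgs2 (145846468 to 145851279) lies 135 kb from Rgs13, which had 69 reads in all 6 libraries together. Rgs7 (176989207 to 177422676) and Rgs20 (4899657 to 5060366) are on the same chromosome, Rgs10 is on chromosome 7 (135517139 to 135561686) and Rgs14 on chromosome 13 (55471093 to 55486048). The exons of the 8 genes overlapped those of 0 other genes in the table, so no other row of the table, antisense genes included, covers the same exon bases.

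Rgs2 and Rgs4 did not change with housing past the threshold, and the adjusted p of edgeR's test over all genes was 0.9999 for each of the 8 genes. Rgs2, which preferentially inactivates Gnaq-type alpha subunits, had 55.5, 57.2 and 50.9 CPM in single-housed replicates 1, 2 and 3, against 60.5, 50.6 and 55.2 CPM in group-housed replicates 1, 2 and 3. The groups overlapped, and the highest and the lowest library were both group-housed. The log2 difference (single-housed minus group-housed) was −0.02 (SE 0.0868, 95% interval −0.22 to 0.17). Rgs4, which inactivates Gi/o-type and Gnaq-type alpha subunits, had 848, 670 and 849 CPM in single-housed libraries, against 594, 862 and 881 CPM in group-housed libraries. The groups overlapped here too: a single low library in each group, single-housed replicate 2 and group-housed replicate 1, stood below the remaining 4. The log2 difference was 0.02 (SE 0.157, 95% interval −0.34 to 0.38). Its sign turned in 3 of the 6 fits that left out 1 library: it was −0.14 (SE 0.108) without group-housed replicate 1 and −0.04 without single-housed replicate 1 or 3.

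**Figure D2:**
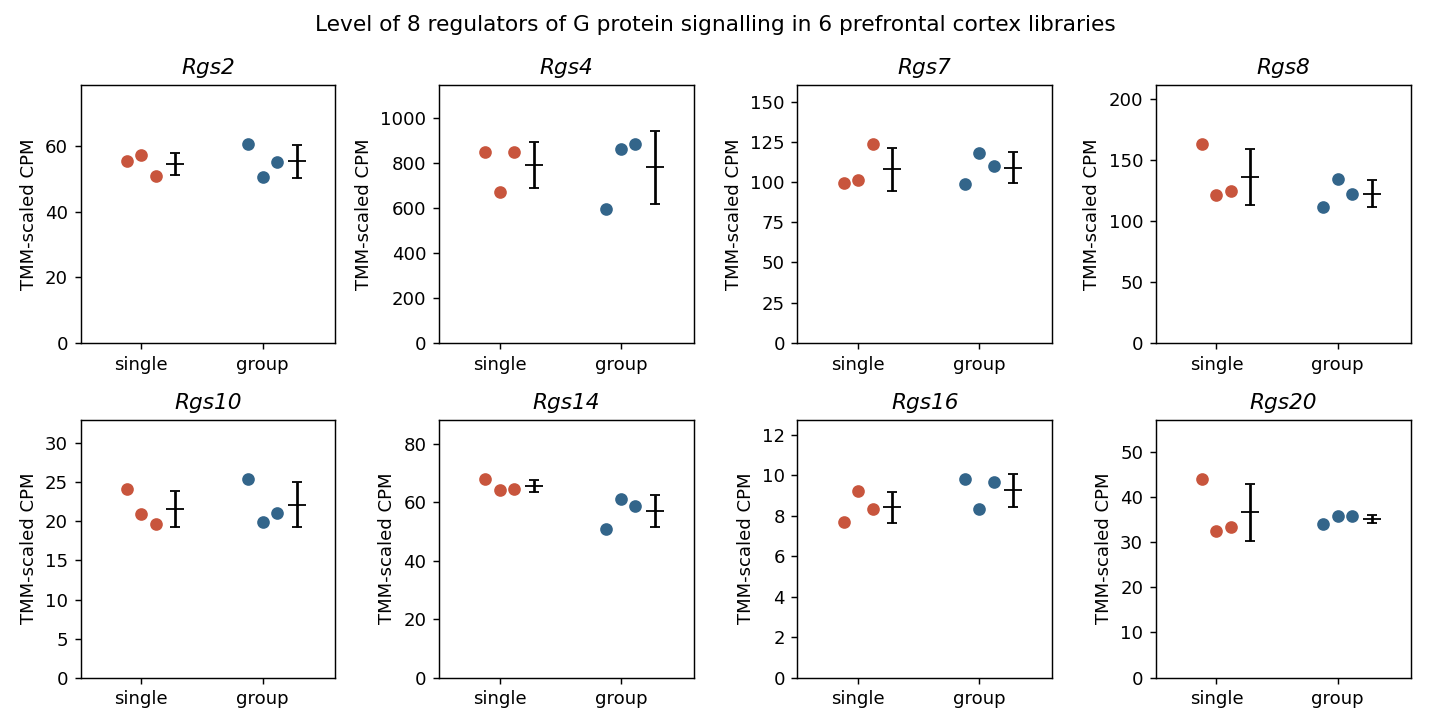
CPM of each gene per library (points, axes from 0), single-housed left of group-housed, with the group mean and SD (n = 3 each) as the bar beside the points. The groups overlap for 7 of 8 genes, and for Rgs14 the 3 single-housed libraries (64.3 to 67.9 CPM) lie above the 3 group-housed ones (50.9 to 61.2 CPM).

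The other R4 genes, Rgs8 and Rgs16, had differences of opposite sign. Rgs8, best known from Purkinje cells of the cerebellum, had 163, 121 and 125 CPM in single-housed libraries, against 112, 134 and 122 CPM in group-housed libraries. Single-housed replicate 1 was the highest of all, and the other 5 were mixed (log2 difference 0.16, SE 0.123; 0.01 without single-housed replicate 1). Rgs16, a clock-controlled gene of the suprachiasmatic nucleus, had 7.69, 9.21 and 8.34 CPM in single-housed libraries, against 9.81, 8.32 and 9.65 CPM in group-housed libraries. The ranges overlapped (log2 difference −0.14, SE 0.117).

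Rgs7, the R7 member, had 99.2, 101 and 123.4 CPM in single-housed libraries, against 99.0, 118 and 110 CPM in group-housed libraries. These ranges were nearly the same, with a log2 difference of −0.02 (SE 0.105). Rgs20, the RZ member, had 43.9, 32.4 and 33.3 CPM in single-housed libraries, against 34.0, 35.6 and 35.7 CPM in group-housed libraries. Single-housed replicate 1 stood above the other 5, which lay within a narrow band, and the log2 difference was 0.06 (SE 0.119; −0.10 without that library).

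Rgs14, an R12 protein that also holds a motif binding inactive Gi alpha subunits and is known for limiting plasticity in hippocampal area CA2, was the only one of the 8 whose groups did not overlap. It had 67.9, 64.3 and 64.6 CPM in single-housed libraries, against 50.9, 61.2 and 58.8 CPM in group-housed libraries. Each single-housed library lay above each group-housed one, and group-housed replicate 1 was the lowest. The log2 difference was 0.20 (SE 0.0832, 95% interval 0.01 to 0.39), with an unadjusted p of 0.0386 and an adjusted p of 0.9999 in edgeR's quasi-likelihood test over all genes, so it did not pass. Groups did not overlap for 4.86% of all genes tested, and for 2.46% with single-housed mice higher, and nothing is read from 1 gene of 8 beside that background. With 1 library left out, the difference was 0.13 to 0.26. It was smallest without group-housed replicate 1 (edgeR unadjusted p = 0.101). It was largest without group-housed replicate 2 (edgeR unadjusted p = 0.0146, adjusted p = 0.875). With the mean of the striatal markers as covariate, the difference was 0.23 (edgeR adjusted p = 0.9991). Leaving out the 3 libraries richest in striatal markers gave 0.11, where 1 library was left against 2. The 6 markers of hippocampal areas CA2 and CA3 summed to 275 to 441 CPM with single housing and to 272 to 412 CPM with group housing. Most of this sum was 1 gene, Pcp4, at 209 to 368 CPM per library. Pcp4 rose with the mean of the striatal markers (slope 0.29 with housing in the model, edgeR adjusted p = 0.00587), so the sum is no clean measure of hippocampal tissue. The part of such tissue in the Rgs14 values was not tested.

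Rgs10, the small R12 protein known for restraining microglial activation, had 24.1, 20.9 and 19.7 CPM in single-housed libraries, against 25.4, 19.9 and 21.1 CPM in group-housed libraries. The groups overlapped (log2 difference −0.04, SE 0.121). The 8 microglial markers summed to 428 to 435 CPM with single housing and to 414 to 515 CPM with group housing, and their part in the Rgs10 values was not tested. In bulk tissue, fewer cells of a type and less RNA per cell cannot be told apart.

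**Figure D3:**
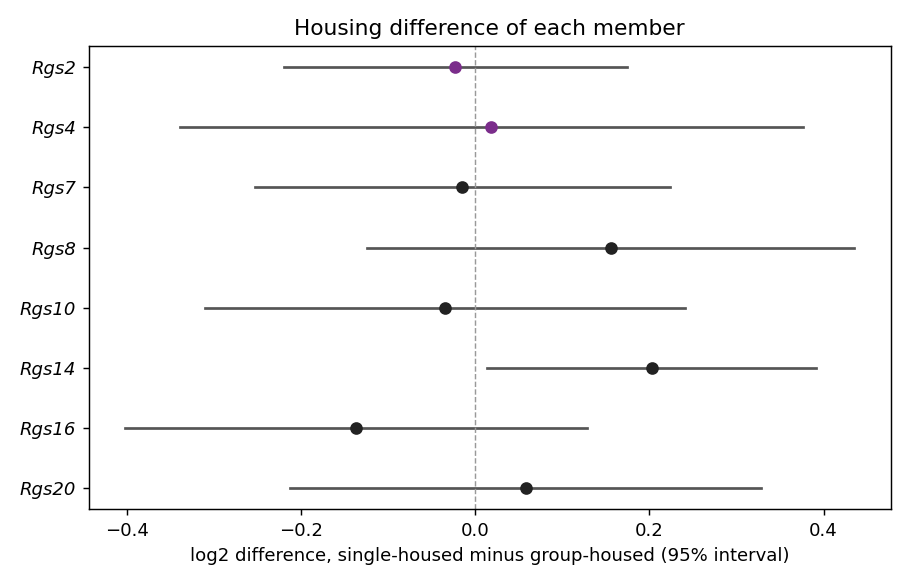
Log2 difference between single-housed and group-housed libraries (points) with its 95% interval from edgeR (lines), for each gene, with Rgs2 and Rgs4 in purple. The intervals of 7 genes include 0, and that of Rgs14 runs from 0.01 to 0.39 before any adjustment for the number of genes tested.

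Counted together, 0 of the 8 genes passed edgeR's test over all genes, against a background of 0%, and 1 (Rgs14) had an unadjusted p under 0.05, against 1.56% of all genes. DESeq2 and limma-voom also called 0 of the 8. The differences were positive for 4 and negative for 4, with a median of 0.00, beside a median of 0.00 over all genes tested. Within each library, the mean log2 RPKM of Rgs2 and Rgs4 stood above that of the other 6 by 1.89, 1.89 and 1.95 in single-housed and by 1.85, 1.95 and 2.02 in group-housed replicates 1, 2 and 3. These values overlapped between the groups. The excess came from Rgs4, since Rgs2 at 18.3 RPKM stood below Rgs7, Rgs14, Rgs10 and Rgs8 in level.

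Most immediate early genes, which neurons switch on within minutes of activity, had lower levels with single housing in these same libraries, though none passed the test. Of the 30 on the list, 27 had a lower level with single housing, and their median log2 difference was −0.49. The list mean (log2 CPM) ranged over 4.201, 4.40 and 4.22 for the mice living alone, against 4.98, 4.64 and 4.79 for those in company (replicates 1, 2 and 3), with no overlap. The groups did not overlap for 13 of the 30 genes, against 4.86% of all genes tested. In edgeR's test 0 passed the adjusted threshold and 16 had an unadjusted p under 0.05, against 1.56% of all genes. Whether the difference of Rgs2 or Rgs4 departs from that of the list was not tested.

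The spread between libraries was unequal among the 8 genes, and the profiles of Rgs2 and Rgs4 over the libraries were unlike. Between the highest and lowest library, the level of Rgs4 differed by 1.48-fold (0.57 on the log2 scale, against a median of 0.30 over genes of at least 5 CPM), that of Rgs8 by 1.46-fold and that of Rgs2 by 1.196-fold, the smallest of the 8. Group-housed replicate 1, the library of lowest depth, had the highest level of 3 genes (Rgs2, Rgs10 and Rgs16) and the lowest level of 4 (Rgs4, Rgs7, Rgs8 and Rgs14). Single-housed replicate 1, with the highest striatal list mean, had the highest level of Rgs8, Rgs14 and Rgs20 and the lowest level of Rgs16. Centred on each gene's own mean, the closest of the 28 pairs were Rgs8 with Rgs20 (root-mean-square difference 0.0780 in log2 CPM over 6 libraries) and Rgs2 with Rgs10 (0.0825). Rgs2 and Rgs4 were among the most unlike pairs at 0.295, where the largest value was 0.315 for Rgs4 with Rgs10. The RPKM ratio of Rgs4 to Rgs2 was 15.6, 11.99 and 17.1 in single-housed and 10.0, 17.4 and 16.3 in group-housed replicates 1, 2 and 3. The lowest ratio of each group was in single-housed replicate 2 and group-housed replicate 1. The part of tissue make-up in this ratio was not tested.

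**Figure D4:**
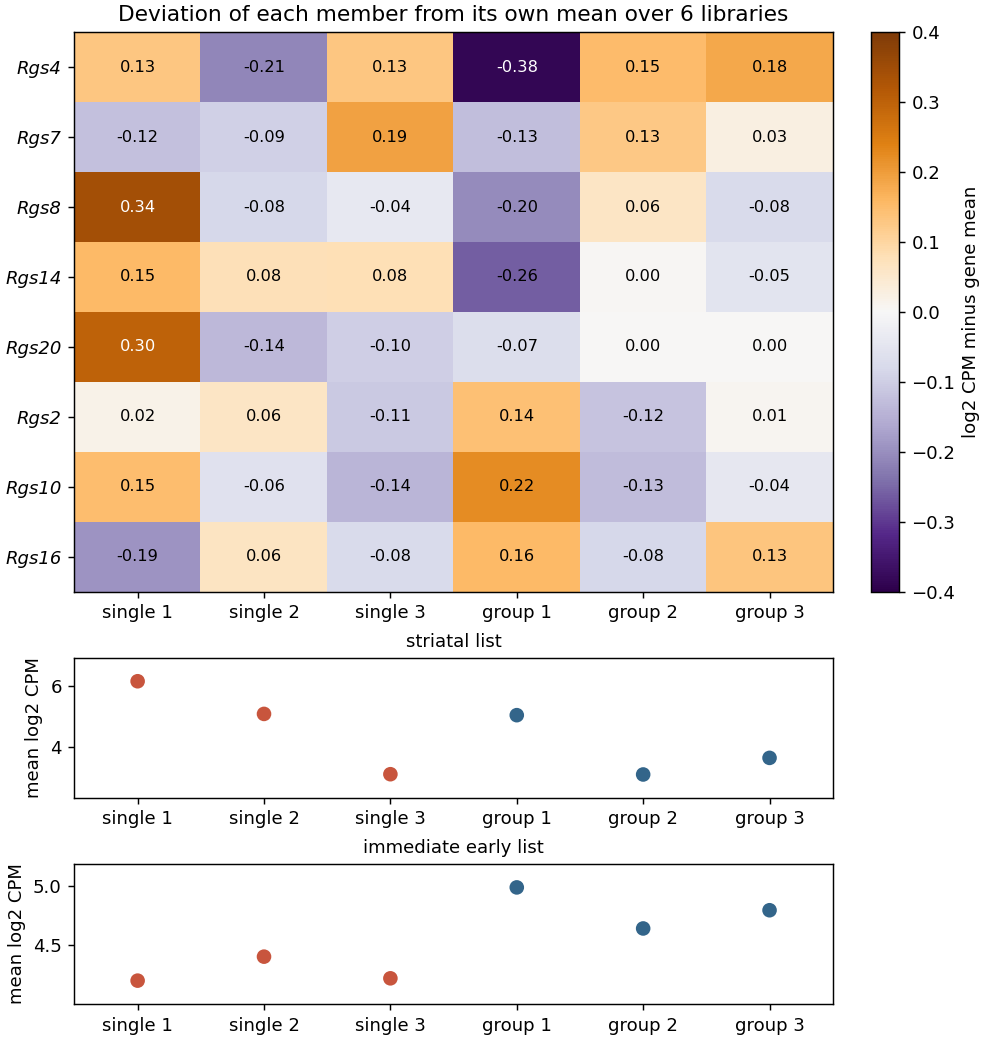
Upper panel: log2 CPM of each gene in each library minus that gene's mean over the 6 libraries, single-housed to the left, with rows ordered after the values were seen. Lower panels: mean log2 CPM of the striatal and the immediate early lists in the same libraries (axes do not start at 0). Rgs4 is lowest in group-housed replicate 1 (−0.38), where Rgs2 (0.14), Rgs10 (0.22) and Rgs16 (0.16) are highest.

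Rgs4 and Rgs2 also had slopes of opposite sign on the immediate early list mean within the groups, neither past the threshold. In each group, the library with the highest immediate early list mean (single-housed replicate 2 and group-housed replicate 1) had the lowest Rgs4 level and the highest Rgs2 level. With housing in the model, the slope was −1.66 (SE 0.371) for Rgs4 and 0.67 (SE 0.282) for Rgs2 in log2 CPM per log2 unit of the list mean. Neither slope passed (edgeR's quasi-likelihood test, adjusted p = 0.116 and 0.276, unadjusted p = 0.00147 and 0.0411). The other slopes were −0.96 for Rgs8, −0.69 for Rgs7, −0.62 for Rgs14, −0.57 for Rgs20, 0.60 for Rgs10 and 0.79 for Rgs16, with 0 of 8 genes past the adjusted threshold, against 0.00655% of all genes (1 gene), and 3 of 8 at an unadjusted p under 0.05, against 16.8%. The genes of the list themselves had slopes of both signs on its mean, with 0 of the 30 past the threshold. Each of them is part of that mean, so these slopes are not independent of it and nothing is read from them. Whether the list mean stands for each immediate early gene within the groups was not tested. The count over all genes rested on single libraries: it was 1285 without single-housed replicate 1, 72 and 104 without single-housed replicates 2 and 3, and 0 without any 1 of the group-housed libraries. The Rgs4 slope stayed negative in all 6 of these fits, from −2.28 to −1.29. It passed in only 1 of them, the fit that called 1285 genes (edgeR adjusted p = 0.0123). In the rest its adjusted p ran from 0.0781 (single-housed replicate 3 dropped) to 0.998 (group-housed replicate 1 dropped). With all 6 libraries, the Rgs4 slope passed when the striatal list mean was added to the model (0.0457), where 366 genes passed. It did not pass with DESeq2 size factors (0.127) or with no filter on low counts (0.0828). Single-housed replicate 2 and group-housed replicate 1 had striatal list means of 5.08 and 5.04 log2 CPM. Single-housed replicate 1 had the highest at 6.15, and its Rgs4 level was 848 CPM. The part of tissue make-up in these slopes was not tested.

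**Figure D5:**
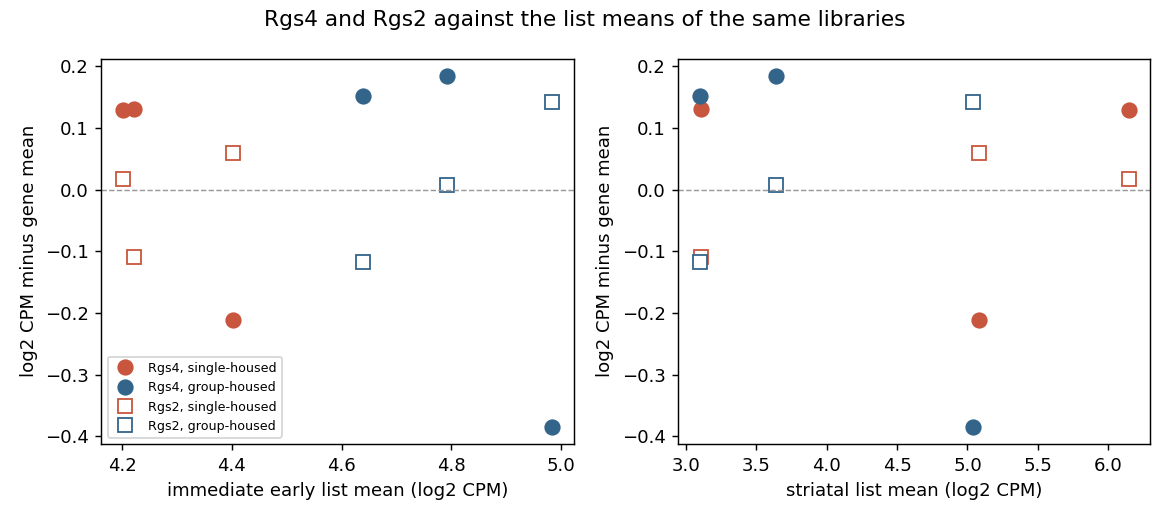
Log2 CPM minus the gene's mean for Rgs4 (filled circles) and Rgs2 (open squares) against the immediate early list mean (left) and the striatal list mean (right) of the same library, single-housed in red and group-housed in blue. Rgs4 is lowest (−0.38 and −0.21) where Rgs2 is highest within its group (0.14 and 0.06), in group-housed replicate 1 and single-housed replicate 2.

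Against the striatal list mean, none of the 8 genes passed either. With housing in the model, the slope in log2 CPM per log2 unit was −0.11 (SE 0.0317) for Rgs7 and 0.12 (SE 0.0410) for Rgs10, with edgeR adjusted p = 0.149 and 0.268. These were the 2 of 8 at an unadjusted p under 0.05, against 12.5% of all genes. It was 0.07 (SE 0.0355) for Rgs2 and −0.10 (SE 0.0650) for Rgs4, and between −0.03 and 0.07 for Rgs8, Rgs14, Rgs16 and Rgs20. Rgs4 passed without single-housed replicate 1 (−0.24, adjusted p = 0.0433) and had a slope of −0.02 without group-housed replicate 1. Over all genes, 267 (1.75%) passed, 245 of them (1.61% of all) rising with the list, and this number was 82 to 376 with 1 library left out. Of the other RGS genes, Rgs9 and Rgs12 rose with the striatal list. Rgs9, the striatal member of the family, had 167, 84.7 and 18.8 CPM in single-housed libraries, against 78.6, 18.9 and 22.2 CPM in group-housed libraries, with a slope of 1.06 (SE 0.0508). Its highest levels were in the 3 libraries with high striatal markers, of both groups, and its housing difference was 1.18 (SE 0.738, edgeR adjusted p = 0.9999). Rgs12, a large R12 protein, had a slope of 0.22 (SE 0.0363, edgeR adjusted p = 0.0162).

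The wider machinery around these genes showed 0 genes past edgeR's threshold for housing, with 0 at an unadjusted p under 0.05 in any of these lists. Of 10 other RGS genes tested, 7 were higher and 3 lower in single-housed libraries (median log2 difference 0.08). Rgs12 (0.30, SE 0.171) and Rgs22 (0.79, SE 0.483, with 0.433 ± 0.216 CPM alone and 0.246 ± 0.0945 CPM in company, SD, n = 3 each) had the smallest p, while the pericyte gene Rgs5 differed by 0.17 (SE 0.134) and Rgs3 by 0.11 (SE 0.173). Of 14 other genes with an RGS or RGS-like domain, 9 were higher and 5 lower (median 0.02). Adrbk1, a receptor kinase that marks active receptors for desensitisation, averaged 358 ± 3.14 CPM with single housing and 386 ± 6.60 CPM with group housing (SD, n = 3 each; log2 difference −0.11, SE 0.0635), with no overlap, and Snx25, a sorting nexin, differed by 0.11 (SE 0.0828).

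Among 10 partners of RGS proteins, 7 were higher and 3 lower (median 0.07). Gnb5, the obligate partner of Rgs7, averaged 170 ± 11.8 CPM with single housing and 166 ± 12.1 CPM with group housing (log2 difference 0.04, SE 0.0844). Rgs7bp, which anchors the Rgs7 complex at the membrane, differed by 0.05 (SE 0.132) and Gpr158, an orphan receptor that recruits it, by 0.12 (SE 0.123). The smallest p belonged to Gpr179 (0.63, SE 0.304, at 9 to 23 reads per library) and Gpsm1 (0.09, SE 0.0745), and Ric8b, a chaperone of Gnas-type subunits, differed by 0.13 (SE 0.127).

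The genes of the G protein subunits had differences of both signs, none past the threshold. Of 12 alpha subunit genes, 6 were higher and 6 lower (median −0.01), with Gnal, the striatal and olfactory alpha subunit, at 0.29 (SE 0.168) and Gnai3 at −0.07 (SE 0.0943). Of 14 beta and gamma subunit genes, 6 were higher and 8 lower (median −0.02), and the groups did not overlap for 3, where 4.86% of all genes tested did not. Gng4 averaged 48.9 ± 1.36 CPM with single housing and 54.2 ± 2.68 CPM with group housing (−0.15, SE 0.0702), and Gng7, abundant in the striatum, differed by 0.74 (SE 0.461) with a striatal list slope of 0.65 (SE 0.0345). Of 4 genes of G protein-gated potassium channels, which released beta and gamma subunits open and RGS proteins close faster, 2 were higher and 2 lower, with Kcnj9 at −0.09 (SE 0.0955) and Kcnj5 at 0.54 (SE 0.705, at 4 to 23 reads per library).

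By the size of the deviation from their own means, the genes most like Rgs4 over the 6 libraries were Gpr153 (root-mean-square difference 0.0496 in log2 CPM), Anxa11 (0.0571) and Pura (0.0714), among 10667 genes of at least 5 CPM. The SD of Rgs4 itself was 0.217, and 54 genes lay within 0.1 of it. The genes most like Rgs2 were Eef1a1, the translation elongation factor gene (0.0166), Rpf1 (0.0183) and Tmem147 (0.0197), but Rgs2 varied so little that 2800 genes lay within 0.1 of it. For the others the nearest genes were Pcdh10 for Rgs7 (0.0248), Sema3g for Rgs8 (0.0448), Cbs for Rgs10 (0.0236), Zfp128 for Rgs14 (0.0383), Cwc27 for Rgs16 (0.0273) and Shank3 for Rgs20 (0.0234).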

How the data were processed

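Per the labels' protocols, a column kit yielded the RNA and a stranded poly(A) kit (TruSeq) the libraries. The submitters' processing notes name FastQC, STAR, featureCounts and mm9. No version, annotation release or strand option is given in the sources used here. The authors deposited raw counts per gene without normalization, 1 column per library.

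Housing labels gave the groups. Genes were filtered with filterByExpr (minimum count 10, minimum total 15), scaled by TMM and tested with edgeR 4.0.16 in R 4.3.3 (quasi-likelihood F-test, Benjamini-Hochberg adjustment over 15258 genes, threshold 0.05), with standard errors from the F statistic. RPKM used the deposited exon length. Slopes came from the same test with housing and a list's mean log2 CPM (prior count 2) as terms; the lists hold none of the 8 genes. The fit was tested on simulated data. The genes, lists and alternatives were chosen with earlier results of these data known. Named were all 8 genes, the 2 genes of smallest p per pathway list (not the marker or immediate early lists), 7 genes by name, and the nearest 3 (Rgs2, Rgs4) or 1 by profile; Rgs11, Rgs13 and Six3 were added after their values were seen. Alternatives used DESeq2 1.42.0 and limma 3.58.1. No 2 libraries agreed within sampling noise (chi-square per degree of freedom 8.56 to 40.6).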

Additional observations from a re-analysis of the deposited data

How the results depend on the processing

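The 15 alternatives for the housing comparison called none of the 8 genes, and 103 of 120 values kept their sign. Over all genes the count of 0 became 8 with DESeq2, 4 when the 3 libraries richest in striatal markers were dropped, and 0 to 1 with 1 library left out (1 gene each without group-housed replicate 1 or 2). With the striatal list mean as covariate, Rgs7 and Rgs20 turned to 0.0789 and −0.0120. When the 3 libraries richest in striatal markers were dropped, Rgs4, Rgs7, Rgs8 and Rgs20 were at −0.0369, 0.114, −0.0328 and −0.0969. Leaving out 1 library at a time gave −0.0843 to 0.0457 for Rgs2, −0.142 to 0.130 for Rgs4, −0.123 to 0.0460 for Rgs7, −0.1232 to 0.0756 for Rgs10 and −0.0959 to 0.145 for Rgs20. Rgs8, Rgs14 and Rgs16 kept their sign in these 6 fits. The cause of these turns was not tested.

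The striatal slope count of 267 was 82 to 376 with 1 library left out and 416 with both list means in the model. There the slopes of Rgs14 and Rgs16 turned to 0.00956 and −0.0394. With 1 library left out the striatal slope was −0.0761 to 0.0994 for Rgs8, −0.0917 to 0.0174 for Rgs14, −0.0164 to 0.0857 for Rgs16 and −0.0295 to 0.112 for Rgs20. The immediate early slope count of 1 was 0 with DESeq2 size factors, 19 with no filter, 366 with both list means (where Rgs8 also passed, −1.44, adjusted p = 0.0273) and 0 to 1285 with 1 library left out. The immediate early slope of Rgs10 was −0.204 to 1.004 in those fits.

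The replicate numbers gave no clear pairing of the libraries: deviations of same-numbered libraries correlated across genes at 0.271, −0.318 and 0.170. Differently numbered libraries correlated at −0.429 to 0.350. A batch shared between the groups was not tested. With the replicate block the count stayed at 0, and Rgs2, Rgs4 and Rgs14 differed by −0.02, 0.03 and 0.21. With 3 libraries a group, the 95% intervals of the 8 genes still allow log2 differences as large as 0.44 (Rgs8).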
